A study of Mus musculus with 6 samples.

Results

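The nuclear-encoded subunits of the mitochondrial respiratory chain were followed in the cortex of mice 14 days after stroke. Members were the protein-coding genes whose symbols begin with Nduf followed by a, b, c, s or v and a number, are Sdha, Sdhb, Sdhc or Sdhd, or begin with Uqcr, Cox4 to Cox8, or Atp5. That rule uses names only, and it found 84 of the 24553 genes and unmatched entries of the table: 37 of complex I, 4 of complex II, 8 of complex III, 18 of complex IV and 17 of complex V. All 6 animals were male C57BL/6J mice (C57BL/6 in the strain field) aged 15 weeks, and all had received the antibiotics Metronidazol, Neomycin, Ampicillin and Vancomycin in water with 5% sucrose. From an age of 6 to 8 weeks, short-chain fatty acids (SCFA), which gut bacteria form from fibre, were given in the water of 3 mice for 4 weeks, and a control matched for salt was given to the other 3. RNA came from whole pieces of frozen cortex, so fewer cells of a type and less RNA per cell cannot be told apart, and neither the hemisphere nor the distance from the lesion is stated in the labels. The design text counts 3 mice per group, but the labels do not tie a library to an animal, so p-values measure only the spread between these libraries.

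The respiratory chain passes electrons from NADH at complex I and from succinate at complex II through ubiquinone to complex III, and by cytochrome c to complex IV, which reduces oxygen. Complexes I, III and IV pump protons across the inner mitochondrial membrane, and complex V, the ATP synthase, uses the gradient to make ATP. Catalytic subunits are surrounded in the mammalian enzymes by many small accessory subunits, and neurons draw most of their ATP from this pathway, which fails when blood flow stops. Part of the chain is encoded by the mitochondrial genome, and the table held 0 rows under the symbols of those genes, so only the nuclear share is described.

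Many of these nuclear genes have compact, GC-rich promoters in which the factors NRF1, the ETS-family protein GABPA and YY1 are known to bind. RefSeq promoter sequences of build GRCm38.p6 (250 bases before to 50 after the start) were found for 68 of the 84 members, in 73 entries. Both strands were searched for fixed letters, and each motif was counted whether or not a match overlapped one of another motif. The NRF1 motif, here GCGCA and GCGC with any base between them, was present in 18 of 73 member promoters (24.7%), against 4.6% of all 32851 promoters of that length and 8.86% of promoters of tested genes. CCGGAAG, the core that ETS factors read, was present in 23.3% of member promoters, against 8.86% of all promoters and 15.9% of those of tested genes. AAGATGGCG, the YY1 motif, was in 9.59% of member promoters, against 1.4% and 2.82%. At least 1 of these 3 was found in 36 of the 73. By contrast GGGCGG, read by SP1, was in 39.7% of member promoters, between the 35.7% of all promoters and the 60.7% of those of tested genes, and the median GC content was 57.3%, 52.7% and 60.7% in the same order. The letters TATAAA were in 12.3%, 13.6% and 7.3%, and AAGGTCA, read by estrogen-related receptors, was in 8 of 73 member promoters, against 4.72% and 3.11%.

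The following stretches of 150 bases before the start carry these matches in members whose values are given below. In each of complexes II to V, the named member with the smallest p was taken among those with a match and a single promoter entry. Sdha was added for its number of matches. All 5 lie on the minus strand and are written 5′ to 3′ along the gene, with the matches in capitals (CTTCCGG is the ETS letters read from the other strand). They are Sdhd at chr9:50603850-50603999, Uqcrh at chr4:116075071-116075220, Cox6a1 at chr5:115348959-115349108, Atp5e at chr2:174464102-174464251 and Sdha at chr13:74350241-74350390.
Sdhd: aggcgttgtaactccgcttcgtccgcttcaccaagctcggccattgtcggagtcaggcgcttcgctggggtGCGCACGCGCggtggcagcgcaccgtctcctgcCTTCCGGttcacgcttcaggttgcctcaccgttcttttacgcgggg
Uqcrh: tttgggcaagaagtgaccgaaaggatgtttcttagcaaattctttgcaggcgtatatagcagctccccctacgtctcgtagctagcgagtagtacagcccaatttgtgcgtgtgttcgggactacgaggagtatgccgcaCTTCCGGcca
Cox6a1: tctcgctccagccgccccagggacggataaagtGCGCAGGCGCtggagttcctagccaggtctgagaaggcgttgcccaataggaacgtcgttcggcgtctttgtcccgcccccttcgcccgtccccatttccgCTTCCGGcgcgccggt
Atp5e: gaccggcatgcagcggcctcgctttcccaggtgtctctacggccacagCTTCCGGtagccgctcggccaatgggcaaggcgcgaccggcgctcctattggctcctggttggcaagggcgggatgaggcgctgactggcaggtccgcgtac
Sdha: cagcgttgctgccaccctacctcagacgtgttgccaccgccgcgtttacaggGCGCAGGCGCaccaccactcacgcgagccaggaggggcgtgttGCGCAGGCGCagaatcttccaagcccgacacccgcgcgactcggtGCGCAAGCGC
Sdha held 3 NRF1 matches, which began 98, 55 and 10 bases before the start. In Sdhd the NRF1 match began 79 bases and the ETS match 46 bases before it, and in Cox6a1 these distances were 117 and 16 bases. Uqcrh and Atp5e held an ETS match each, at 10 and 102 bases. In the comparison below, the fitted differences of Sdhd, Uqcrh, Cox6a1, Atp5e and Sdha were 0.28, -0.60, -0.35, -0.57 and -0.05 on the log2 scale. None of them passed the test. Because these genes were chosen partly by their p, the values do not describe genes with the motifs in general. A match is a description of letters and does not show that a factor was bound.

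Libraries held 9275252 to 13862756 counts, and 1 entry without a gene symbol accounted for 35% to 55.3% of them. Members together took 46217 to 70599 counts per library. Control 2 stood apart from the other 5 on the first principal component and SCFA 2 on the second. Levels are given as CPM, counts scaled to a common library size with TMM factors, on which 3 counts correspond to 0.206 to 0.346 CPM. Neuronal markers were present (summed 1621 to 1764 CPM in controls and 1752 to 1795 CPM with SCFA), as were those of excitatory cortical neurons (1264 to 1584 and 1503 to 1625 CPM). Of 7 exocrine pancreas markers, a tissue that the label does not include, the sum was 26.7 to 308 CPM in controls and 0.275 to 0.836 CPM with SCFA, and all 7 were called lower with SCFA.

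Of the 84 members, 71 had enough counts to be tested. The 13 that were not were Ndufs1, Ndufs8 and Cox8c, at 0 in all 6 libraries, and Cox6b2, Cox7a2l, Atp5g3, Ndufs5, Cox4i1, Ndufs6, Ndufa7, Cox7b2, Ndufa4l2 and Cox8b, with 1, 1, 2, 3, 6, 11, 17, 24, 40 and 47 counts over the 6 libraries. Several of these, such as Ndufs1 and Ndufs8 (iron-sulfur core subunits of complex I) and Cox4i1 (the common form of subunit 4 of complex IV), are needed in every respiring cell. The table lists transcripts, and 8 of the 13 have 2 or more transcript entries: 64 of the 69 members with 1 entry were tested, against 7 of the 15 with more. Those 15 genes summed to 35.8 to 44.6 CPM in a library, and the other 69 to 4343 to 5287 CPM. No source used here says how reads shared by several transcripts were counted, so a low value of a gene with several entries (Ndufv2, Ndufv3, Ndufa5, Atp5c1, Atp5g1, Atp5j and Atp5pb among the tested) is not read as low expression.

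None of the 71 tested members passed the threshold in the comparison of SCFA with control. With edgeR's quasi-likelihood test the count called was 0, where 0.0835% of all 11969 genes tested were called (0.00835% higher and 0.0752% lower with SCFA). Those are 10 genes, 7 of them the pancreas markers. Adjusted p-values of the members ran from 0.864 to 0.999. At an unadjusted p under 0.05 there were 5 members (5.76% of all genes), with Ndufa13, Ndufa1, Ndufb9 and Cox6a1 lower with SCFA (2.79% of all genes) and Ndufv3 higher (2.97%). DESeq2 and limma-voom also called 0, with 6 and 7 members at an unadjusted p under 0.05. The 95% interval of the fold change lay within a doubling and a halving (-1 to 1 on the log2 scale) for 53 of the 71, and reached one of these bounds for the other 18.

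The fitted values nevertheless leaned one way. The log2 fold change was below 0 in 51 of 71 members (71.8%), against 49.1% of all genes tested, and the median was -0.16, against 0.01 for all genes. Complex I (24 of 31 below 0), complex III (6 of 8) and complex IV (10 of 12) had medians of -0.20, -0.21 and -0.21. Complex II (2 of 4) and complex V (9 of 16) had medians of 0.12 and 0.00. With total counts in place of TMM the median was 0.18 for all genes and 0.00 for the members, so the members lay below all genes under both scalings. Without SCFA 2 the median of all members was 0.02, those of complexes I and IV were -0.04 and 0.01, and that of complex III was -0.11.

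**Figure D1:**
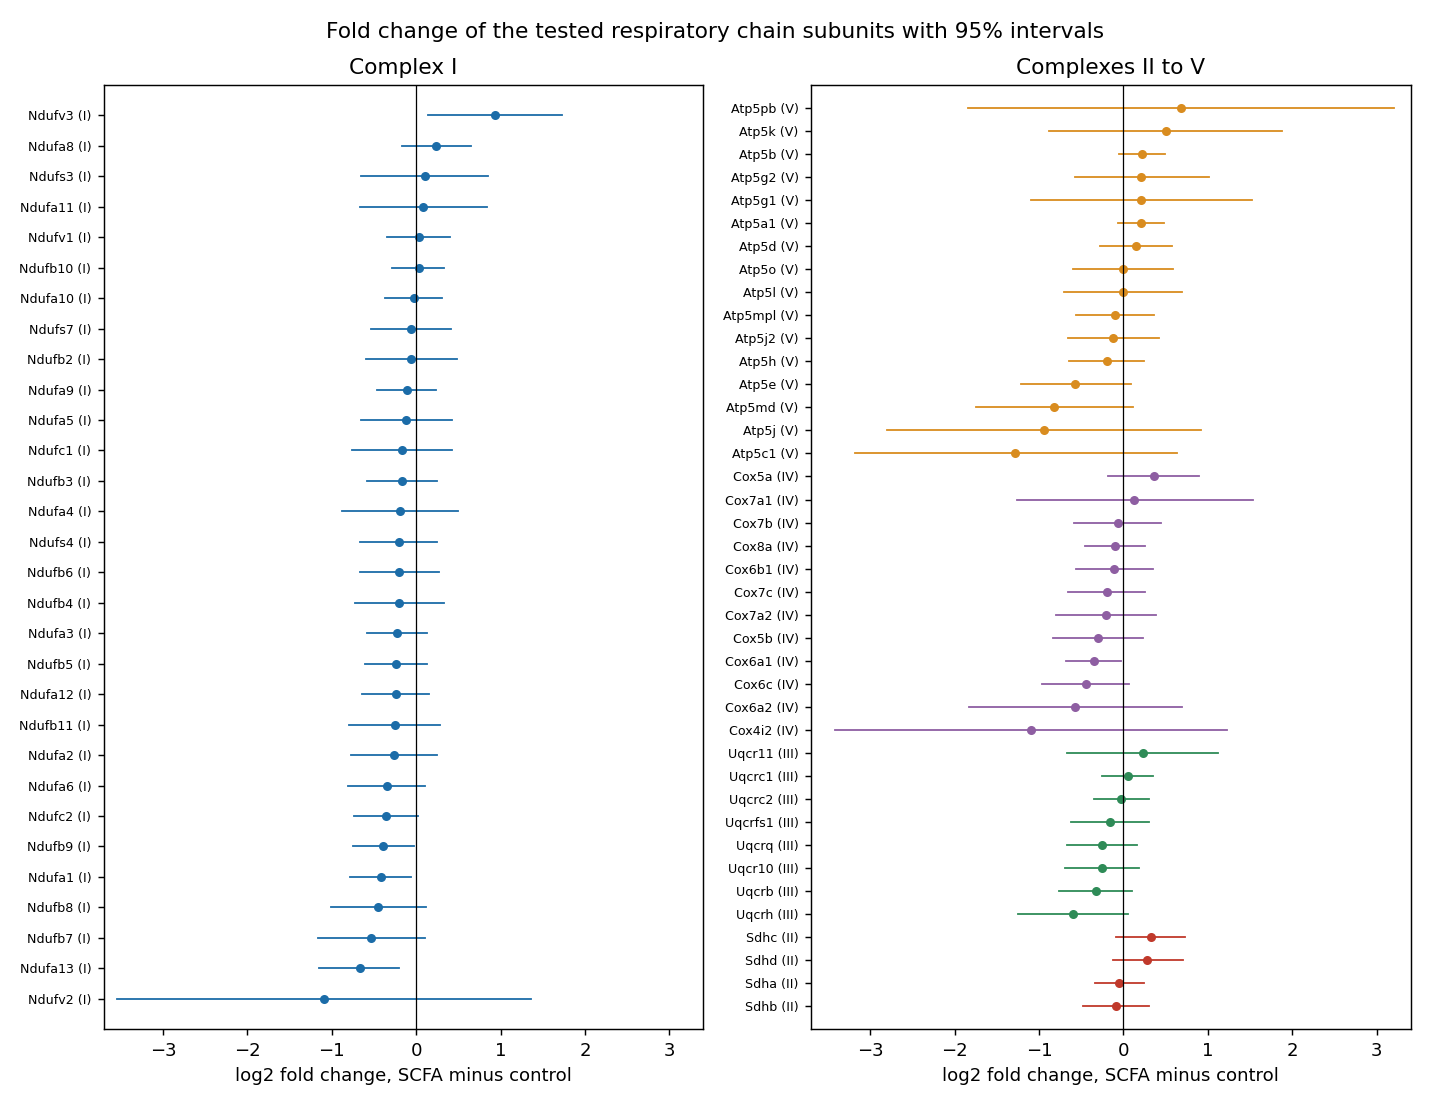
Log2 fold change of the tested subunits, SCFA minus control (points), with their 95% intervals (lines), complex I on the left and complexes II to V on the right; 1 tested subunit is not drawn. In complex I most points lie below 0, and the intervals of Ndufa13, Ndufa1, Ndufb9 and Ndufv3 leave out 0, but none of the 71 genes passed the adjusted threshold.

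Summed over its subunits, complex I stood at 1790, 2004 and 1791 CPM in controls 1 to 3 and at 1722, 1348 and 1758 CPM in SCFA 1 to 3. SCFA 2 was far below the other 5 libraries, while SCFA 1 and 3 lay just under controls 1 and 3. Complex IV showed the same library at the bottom, with 915, 904 and 981 CPM in controls and 904, 612 and 904 CPM with SCFA. Complex III, at 635, 627 and 607 CPM and 592, 480 and 632 CPM, did so too. Complex II did not: its sums were 479, 534 and 504 CPM in controls and 510, 491 and 521 CPM with SCFA, and the groups overlapped. Complex V ran the other way, with 1354, 1258 and 1274 CPM in controls and 1364, 1448 and 1441 CPM with SCFA, each SCFA library above each control and SCFA 2 the highest. Its sum is dominated by the F1 head, the catalytic part that projects into the matrix (1022 to 1077 CPM in controls and 1100 to 1275 CPM with SCFA). Most of the head's sum came from Atp5a1 and Atp5b, with means of 613 and 400 CPM over the 6 libraries. Its other genes Atp5c1, Atp5d and Atp5e had means of 1.85, 63.7 and 38.9 CPM and log2 fold changes of -1.28, 0.15 and -0.57. The remaining 12 subunits of complex V had their lowest sum in SCFA 2, at 173 CPM, where the other libraries had 214 to 277 CPM.

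**Figure D2:**
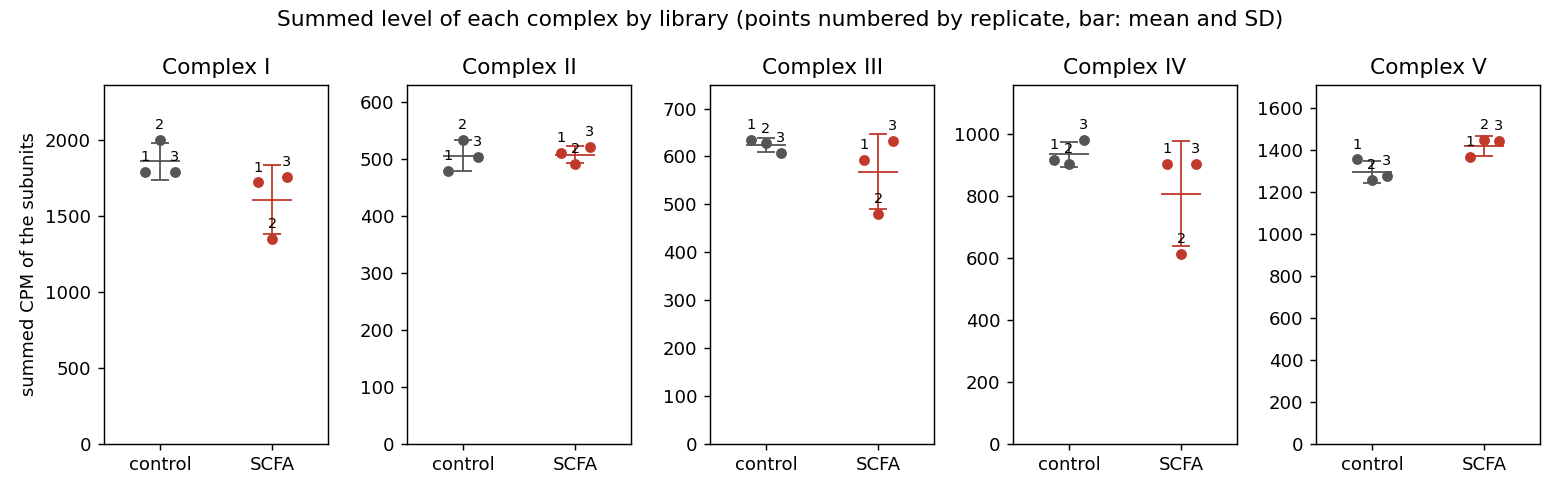
Summed CPM of the subunits of each complex (vertical axis, from 0) in control and SCFA libraries; points are libraries numbered by replicate, and the bar and whiskers are the mean and SD of 3. SCFA 2 is the lowest library in complexes I, III and IV (1348, 480 and 612 CPM) and the highest in complex V (1448 CPM).

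In complex I, SCFA 2 was the lowest library in most of the tested accessory subunits and in none of the tested core subunits. Ndufv1, which binds FMN and takes electrons from NADH, stood at 95.7, 100 and 68.8 CPM in controls and at 86.3, 86.4 and 97.8 CPM with SCFA (log2 fold change 0.03, SE 0.172, edgeR adjusted p = 0.987). Its groups overlapped. Ndufv2, an iron-sulfur core subunit with 2 transcript entries and 50 counts in all, had the lowest fitted value of the complex (-1.09, 95% interval -3.54 to 1.36). It was low in SCFA 2 as well, at 0.275 CPM, with SCFA 3 just below at 0.223 CPM. Over the 5 tested core genes the median was 0.03, and SCFA 2 was the lowest library in none of them. Of the 26 tested accessory genes, 22 were below 0 with a median of -0.20, and SCFA 2 was the lowest library in 20 (76.9%, against 18.5% of all genes tested). The median transcript length was 1312 nt for the tested core genes and 681 nt for the accessory genes. The core median was the length of Ndufv2, taken as the median of its entries, though all its counts lay in the entry of 927 nt. Among accessory genes, Ndufa5 and Ndufv3 were taken as 595 and 1037.5 nt, with all counts in entries of 875 and 1582 nt. The part of length in the contrast of core and accessory genes was not tested, and shares by length class are given below.

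Ndufa13, an accessory subunit in the membrane arm also known as GRIM-19 (chr8:69894163-69902558, GRCm38), had the smallest p of all members. It was read at 96.5, 157 and 111 CPM in controls and at 85.7, 53.9 and 88.5 CPM with SCFA. Each SCFA library lay below each control, with SCFA 2 lowest and control 2 highest, and the log2 fold change was -0.67 (95% interval -1.15 to -0.20, SE 0.220, edgeR adjusted p = 0.864). Ndufa1, a small membrane subunit needed to assemble the complex (chrX:37187588-37191238), was read at 73.3, 74.8 and 81.5 CPM and at 62.3, 47.9 and 61.5 CPM. Its groups did not overlap either, with means of 76.5 ± 4.38 and 57.2 ± 8.10 CPM (SD, n = 3), and the log2 fold change was -0.42 (SE 0.167, edgeR adjusted p = 0.864). Ndufb9 (chr15:58933801-58939516), which had the highest level per length in the complex at 266 CPM per kb, was read at 198, 226 and 213 CPM and at 164, 125 and 198 CPM. SCFA 3 came within rounding of control 1, and the log2 fold change was -0.39 (SE 0.169, edgeR adjusted p = 0.864). Ndufc2, also of the membrane arm, stood at 92.1, 116 and 100 CPM and at 87.9, 62.6 and 90.3 CPM, a log2 fold change of -0.36 with an edgeR adjusted p of 0.880. The spans of Ndufa13 and Ndufa1 overlap Tssk6 and Rnf113a1 in the annotation, and without a stated strand setting reads of such neighbours cannot be told apart. The same limit holds for other members with an overlapping gene, among them Ndufv2, Sdhc, Uqcrc2, Uqcrh, Uqcrq, Cox4i2, Cox6a2, Cox7a2, Atp5b and Atp5md.

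Ndufv3, the small accessory subunit of the NADH-oxidising tip (chr17:31520115-31531326), lay the other way. It was read at 5.58, 4.38 and 6.01 CPM in controls and at 8.04, 12.7 and 9.75 CPM with SCFA, with no overlap and SCFA 2 the highest library. The log2 fold change was 0.93 (95% interval 0.14 to 1.73, SE 0.370, edgeR adjusted p = 0.864). The gene has 2 transcript entries, so its level is uncertain as described above. Ndufb10, an accessory subunit of the membrane arm, was the steadiest example: 90.2, 92.7 and 91.1 CPM in controls and 95.8, 92.1 and 91 CPM with SCFA, a log2 fold change of 0.03 with a 95% interval of -0.28 to 0.33. Ndufb10 was picked out after its values were seen. Ndufa4, grouped with complex I by its name but since assigned to complex IV, stood at 25.4, 18 and 23.3 CPM and at 27.8, 10.5 and 20.4 CPM, with overlapping groups.

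Complex II, which is also an enzyme of the citric acid cycle, is wholly nuclear-encoded. Sdha, its flavoprotein, stood at 280, 344 and 309 CPM in controls and at 280, 326 and 295 CPM with SCFA (-0.05, SE 0.136, edgeR adjusted p = 0.973). Sdhb, the iron-sulfur subunit, stood at 112, 114 and 117 CPM and at 132, 78.7 and 111 CPM, so that only SCFA 2 was well below the controls and SCFA 1 was above them. The membrane anchors lay higher with SCFA: Sdhc was read at 43.1, 41.4 and 34.1 CPM and at 45.9, 43.8 and 58.4 CPM, without overlap, and its log2 fold change was 0.32 (SE 0.192, edgeR adjusted p = 0.889). Sdhd, the other anchor, was read at 44.5, 34.3 and 44.7 CPM and at 51.5, 42.8 and 56.4 CPM, with overlap (0.28, SE 0.191, edgeR adjusted p = 0.899).

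In complex III, SCFA 2 was the lowest library in 5 of 8 genes, among them the core protein Uqcrc2 (219, 199 and 200 CPM in controls and 212, 167 and 229 CPM with SCFA) but not the small subunit Uqcr11, which was lowest in control 2. Uqcrc1, the other core protein, stood at 110, 104 and 112 CPM in controls and at 108, 108 and 121 CPM with SCFA (0.05, 95% interval -0.25 to 0.35). Uqcrfs1, the Rieske iron-sulfur protein, stood at 47.7, 34.7 and 36.6 CPM and at 30.1, 33.5 and 43 CPM, with overlap. Uqcrh, the hinge protein near cytochrome c1 (chr4:116066965-116075070), stood at 43.5, 65.5 and 30.1 CPM and at 36.5, 19.1 and 36.3 CPM. Control 2 was its highest and SCFA 2 its lowest library, and the log2 fold change was -0.60 (95% interval -1.25 to 0.05, edgeR adjusted p = 0.881). It was -0.34 without SCFA 2, -0.27 without control 2 and -0.02 without both. Uqcrb, which had the highest level per length of the complex (143 CPM per kb), stood at 80.6, 67.8 and 107 CPM and at 76.4, 54.4 and 73.1 CPM. Uqcrq, another small subunit, stood at 68.6, 95.2 and 68.1 CPM and at 75.6, 52.8 and 66.1 CPM. SCFA 2 was the lowest library for both and the groups overlapped, with log2 fold changes of -0.33 and -0.25.

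In complex IV, SCFA 2 was the lowest library in 10 of the 12 tested genes, the exceptions being Cox5a and Cox6a2. Cox6a1, the widely expressed form of subunit 6a (chr5:115345652-115348958), had the highest level per length of all tested members, 442 CPM per kb. It was read at 255, 313 and 281 CPM in controls and at 239, 184 and 242 CPM with SCFA, each SCFA library below each control (-0.35, 95% interval -0.68 to -0.03, edgeR adjusted p = 0.864). Cox6c, a small membrane subunit, stood at 79.1, 94 and 86.8 CPM and at 89.5, 40.3 and 60.4 CPM, so SCFA 1 lay among the controls (-0.45, SE 0.237, edgeR adjusted p = 0.881). Its fold change was -0.20 without SCFA 2 and -0.78 without SCFA 1. Cox5a, which lies on the matrix side, had its lowest library in the controls: 23.4, 15.3 and 25.3 CPM against 23.3, 28.5 and 30.3 CPM with SCFA (0.36, SE 0.247, edgeR adjusted p = 0.902).

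Several complex IV subunits exist as a widely expressed form and a form of heart and skeletal muscle, and the libraries held mostly the former. Per kb of transcript, Cox6a1 stood at 442 ± 76.3 CPM (SD over 6 libraries) and the muscle form Cox6a2 at 5.45 ± 2.41 CPM. Cox7a2 stood at 88.9 ± 26.6 CPM per kb and its muscle form Cox7a1 at 6.90 ± 2.13. Cox8a stood at 373 ± 54.6 CPM per kb and its muscle form Cox8b at 2.04 ± 2.60, with 0 counts in control 3 and SCFA 1. The 8 muscle markers summed to 8.98 to 17.3 CPM, with Acta1 and Tnnt3 at 0, and Cox6a2 is also known from parvalbumin interneurons. Cox6b1 stood at 145 ± 29.4 CPM per kb. The testis form Cox6b2 had 1 count, but it has 6 transcript entries, so these 2 forms cannot be compared. Ndufa4 stood at 34.3 ± 10.1 CPM per kb and its relative Ndufa4l2 at 0.649 ± 0.710. Cox4i2, the lung and low-oxygen form of subunit 4, stood at 1.40 ± 1.26 CPM per kb; the 6 counts of Cox4i1, with 2 transcript entries, do not allow the pair to be compared. Among the tested forms, the log2 fold changes of Cox6a2, Cox7a1, Cox7a2, Cox8a, Cox6b1 and Cox4i2 were -0.57, 0.13, -0.21, -0.10, -0.11 and -1.09, all with overlapping groups.

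In complex V, the alpha and beta subunits, which form the hexamer of the F1 head, were read higher in each SCFA library than in each control. Atp5b, the catalytic beta subunit (chr10:128083307-128090388), was read at 380, 380 and 348 CPM in controls and at 410, 449 and 433 CPM with SCFA. Its means were 369 ± 18.7 and 430 ± 19.8 CPM (SD, n = 3), and the log2 fold change was 0.22 (95% interval -0.05 to 0.49, SE 0.125, edgeR adjusted p = 0.889). Atp5a1, the alpha subunit, was read at 592, 548 and 565 CPM and at 605, 730 and 635 CPM (0.21, SE 0.128, edgeR adjusted p = 0.892). SCFA 2 was the highest library for both, while it was the lowest in 6 of the 11 tested subunits outside the head. Atp5a1 overlaps Haus1 in the annotation.

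Atp5e, the small epsilon subunit at the foot of the head (chr2:174461075-174464101), stood at 29.8, 68.9 and 41 CPM in controls and at 23.6, 27 and 43.2 CPM with SCFA, with control 2 far above the rest (-0.57, SE 0.303, edgeR adjusted p = 0.888; -0.17 without control 2). Atp5md, a small membrane subunit linked to dimers of the synthase (chr19:47083471-47090647), stood at 5.75, 12.2 and 8.01 CPM and at 5.54, 3.37 and 5.81 CPM (-0.82, SE 0.432, edgeR adjusted p = 0.888). SCFA 3 was just above control 1, so the groups overlapped. Atp5mpl, the small proteolipid, had the highest level per length in the complex (287 CPM per kb) and stood at 133, 78.7 and 114 CPM and at 114, 74.6 and 116 CPM. The c-ring, through which protons flow, is made from 3 genes with the same mature protein. Atp5g2 stood at 10.1 ± 1.74 CPM per kb and Atp5g1 at 1.13 ± 0.28 (SD over 6 libraries), with log2 fold changes of 0.21 for each, and Atp5g3 had 2 counts. Atp5g1 and Atp5g3 have 2 and 3 transcript entries, so these levels are uncertain. All counts of Atp5g1 lay in its entry of 596 nt, but its length was taken as 2655.5 nt, the median of its entries. Its level per kb is therefore understated and is not compared with that of Atp5g2. Before scaling by length, the means over the 6 libraries were 7.36 CPM for Atp5g2 and 3.0 CPM for Atp5g1.

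Over all 71 members, the SCFA libraries lay below all controls in 5 (Ndufa13, Ndufa1, Ndufb9, Ndufc2 and Cox6a1), where 5.74% of all genes tested did. They lay above all controls in 4 (Ndufv3, Sdhc, Atp5b and Atp5a1), where 6.42% of all genes did, and the groups overlapped in 62. These shares are near those of all genes. The position of SCFA 2 was further from the background. It was the lowest library in 42 of 71 members (59.2%), against 18.5% of all genes, which are mostly longer (length classes are given below). Of the tested assembly factors described below, SCFA 2 was the lowest library in 45.7%. Its median deviation from a gene's mean over the 6 libraries was -0.36 on the log2 scale for members and 0.05 for all genes, and the other 5 libraries had member medians of 0.03 to 0.10. Control 2 was the highest library in 25 members (35.2%, against 24.9% of all genes) and the lowest in 10 (14.1%, against 31.2%).

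**Figure D3:**
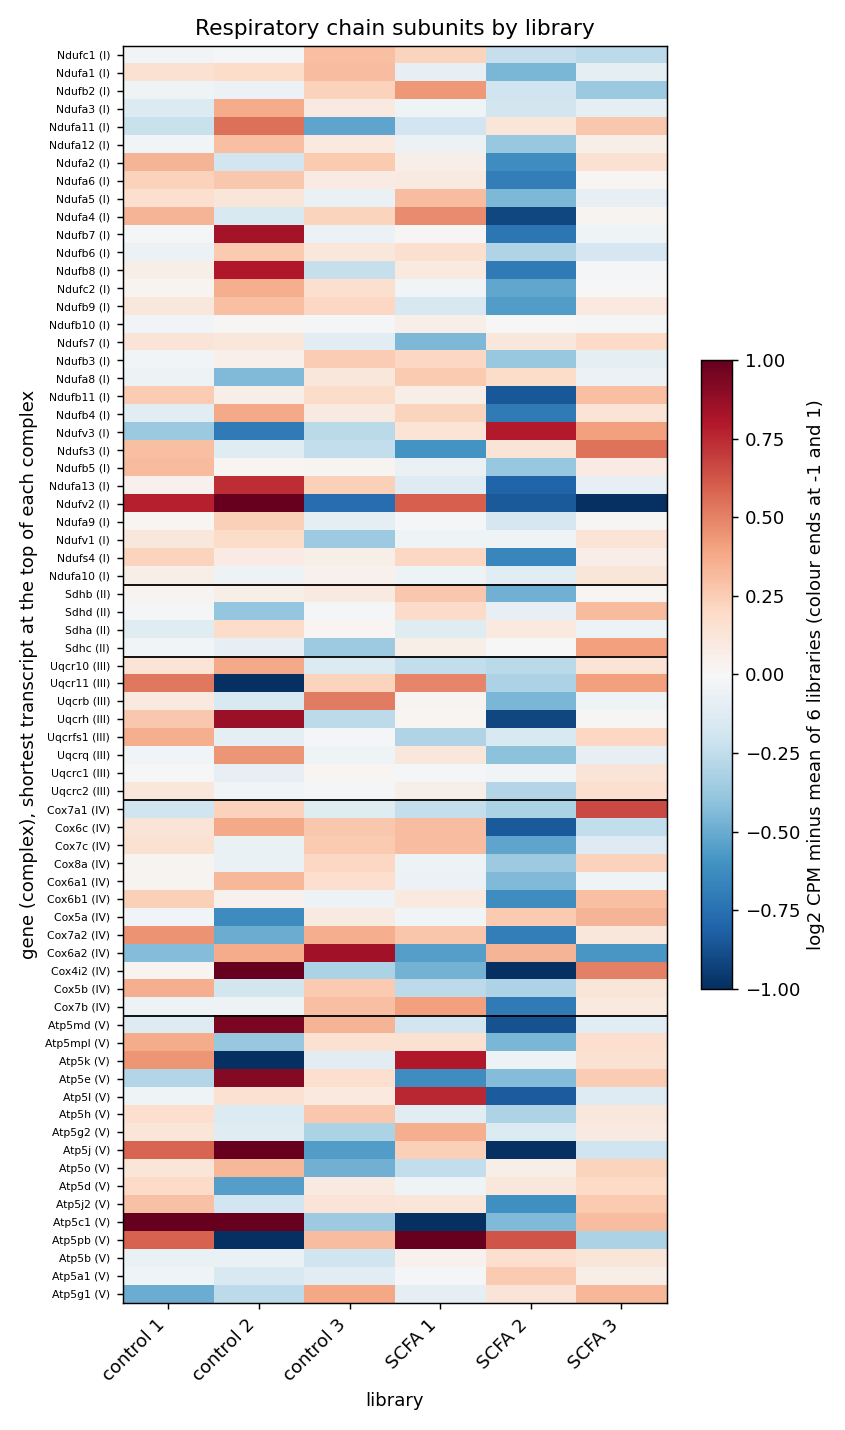
Deviation of the tested subunits (1 is not drawn) from their means over the 6 libraries (log2 CPM, colour, blue below and red above), with libraries in columns and genes in rows, grouped by complex and ordered by transcript length within it. The column of SCFA 2 is blue for most short genes at the top of each block and near white or red for Sdha, Uqcrc1, Atp5b and Atp5a1. Some longer genes are blue in it as well, among them Ndufa13, Ndufs4, Uqcrq and Uqcrc2, at -0.80, -0.65, -0.41 and -0.29.

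Subunit transcripts are short, and short subunits were lower in SCFA 2 than long ones. The median transcript length was 720 nt for all members (315 to 3171 nt) and 2963 nt for all genes tested, and 46.5% of tested members but 2.95% of all tested genes were at most 700 nt. In SCFA 2 the median deviation of members was -0.32 up to 500 nt (10 genes) and -0.52 from 500 to 700 nt (23 genes). It was -0.34 from 700 to 1000 nt and -0.38 from 1000 to 1500 nt (14 and 11 genes), and -0.04 from 1500 to 2500 nt and 0.10 above (10 and 3 genes). Atp5g1 was placed above 2500 nt by the median of its 2 entries, though all its counts lay in the entry of 596 nt. In the same way Ndufa5, Ndufv2, Ndufv3 and Atp5c1 were classed at 595, 1312, 1037.5 and 1450.5 nt. All their counts lay in entries of 875, 927, 1582 and 1735 nt, which belong to other classes. Tested genes that are not members stood at -0.41, -0.11, -0.10, -0.02, 0.08 and 0.06 in the same classes. By class, SCFA 2 was the lowest library in 50%, 87%, 57.1%, 45.5%, 40% and 0% of members. In the other tested genes the shares were 45.1%, 29.3%, 26.6%, 20.9%, 16.1% and 17.2%. Short genes in general were thus low in SCFA 2, and between 500 and 2500 nt the members had lower medians than other genes of their class. Up to 500 nt and above 2500 nt the members had higher medians than the other genes. Across the 71 members Spearman's rho of deviation and length was 0.33 for SCFA 2, while the other 5 libraries gave -0.31 to 0.18, as a description of genes that share libraries and depth. Over all 11770 tested genes with a length it was 0.06 for SCFA 2, smaller in size than the -0.11 of SCFA 3. With the length trend of each library removed, a step chosen once the data had been looked at, the median log2 fold change of the members was -0.11 and 0 were called.

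**Figure D4:**
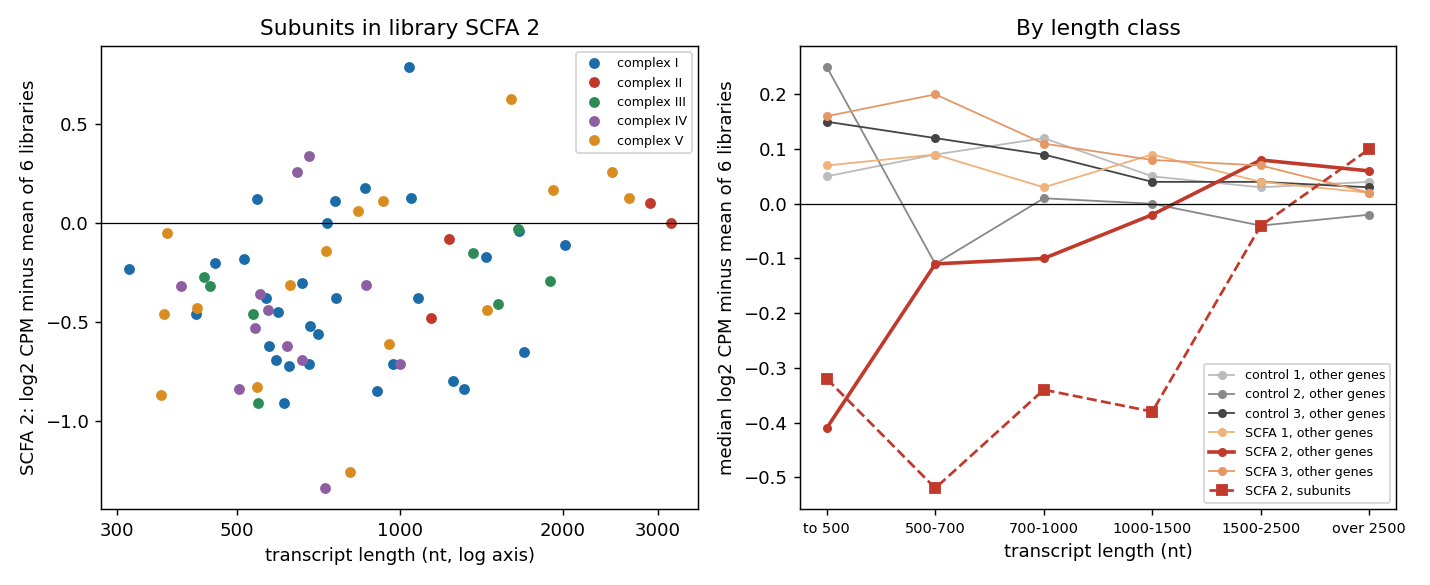
Left, deviation of the tested subunits (1 is not drawn) in SCFA 2 from their means over the 6 libraries (log2 CPM) against transcript length in nt on a log axis, coloured by complex. Right, median deviation by length class of tested genes that are not subunits in each library (solid lines) and of the subunits in SCFA 2 (dashed): the dashed line lies at -0.52 for 500 to 700 nt, where other genes in SCFA 2 lie at -0.11.

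SCFA 2 also stood out in markers of cell types. Its 6 astrocyte markers summed to 1466 CPM (931 and 1087 CPM in SCFA 1 and 3, 653 to 763 CPM in controls) and its 6 microglia markers to 526 CPM (320 and 332 CPM, and 190 to 263 CPM). Its 6 markers of striatal neurons, which lie beneath the cortex, summed to 341 CPM, against 55.7 to 107 CPM in the other 5 libraries. None of these markers passed the adjusted threshold between the groups. The part that cell makeup, dissection or RNA length had in the low subunit values of SCFA 2 was not tested.

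Genes that serve the chain but fall outside the naming rule gave 0 calls as well. Of 35 tested assembly factors (44 listed), 25 were below 0 with a median of -0.24; 6 of the list were at 0. That median was -0.10 without SCFA 2, -0.12 without control 2, -0.06 without both and -0.04 with total counts. SCFA 2 was the lowest library in 16 of the 35 (45.7%, against 18.5% of all genes tested). Control 2 was the highest in 19 (54.3%, against 24.9%), and the median transcript length was 1813 nt. The SCFA 2 share was 36.4% for other chain genes, 15.4% for biogenesis regulators, 25% for the citric acid cycle and 18.8% for membrane machinery. Coa6, a copper-handling assembly factor of complex IV, stood at 14.6, 23.3 and 17.5 CPM in controls and at 11.3, 8.59 and 11.5 CPM with SCFA, without overlap (-0.82, SE 0.290, edgeR adjusted p = 0.864). Ndufaf8, an assembly factor of complex I, stood at 13.4, 13.5 and 11.3 CPM and at 10.8, 4.26 and 6.77 CPM, also without overlap (-0.82, SE 0.373, edgeR adjusted p = 0.864).

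Electron carriers and other chain genes (11 tested) had a median of 0.02, with 5 below 0. Cytochrome c (Cycs) and cytochrome c1 (Cyc1) had log2 fold changes of -0.28 and 0.02. Higd1a, a small protein associated with complex IV, stood at 40.9, 42.6 and 29.4 CPM in controls and at 25.4, 19.3 and 28.9 CPM with SCFA (-0.62, SE 0.231, edgeR adjusted p = 0.864). Its relative Higd2a, added after its values were seen, lay the other way at 22.1, 12 and 32.8 CPM and at 31.3, 34.7 and 39.2 CPM, with overlap (0.65, 95% interval 0.00 to 1.30, edgeR adjusted p = 0.864). Slc25a5, an ADP/ATP carrier that supplies complex V, stood at 48.6, 55.2 and 59 CPM and at 72.9, 85.5 and 70 CPM, each SCFA library above each control (0.49, 95% interval 0.13 to 0.85, edgeR adjusted p = 0.864). Slc25a4, the other ADP/ATP carrier of the list, also added after its values were seen, had means (± SD, n = 3) of 526 ± 28.2 CPM for control and 526 ± 62.0 CPM for SCFA, a log2 fold change of 0.00.

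Regulators of mitochondrial biogenesis (13 of 17 tested) had a median of 0.09, and 6 were below 0. That median was -0.03 without SCFA 1, 0.02 without control 3 or without SCFA 3, 0.03 without control 2, 0.00 without control 2 and SCFA 2 and -0.01 with the replicate number as a block. Gabpa and Tfam, which control nuclear and mitochondrial transcription of chain genes, had log2 fold changes of -0.05 and 0.14. Polrmt, the mitochondrial RNA polymerase, and Tfb1m, the methyltransferase of mitochondrial ribosomal RNA, had values of 0.56 and -0.84 with SEs of 0.377 and 0.499. Ppargc1a and Nrf1 had 6 and 22 counts in 3 and 6 transcript entries and were not tested. The citric acid cycle (16 of 17 tested, 9 below 0) and the import and membrane machinery (16 of 20 tested, 9 below 0) had medians of -0.03 and -0.05. Dld, the dihydrolipoamide dehydrogenase shared by the oxoacid dehydrogenase complexes, had a log2 fold change of -0.44 (SE 0.172) and Suclg2, a subunit of succinyl-CoA ligase, of 0.81 (SE 0.363). Timm23 and Tomm70a, of the inner and outer import gates, had values of -0.48 and -0.24, and all 4 had edgeR adjusted p-values of 0.864 to 0.889.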

How the data were processed

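RNA from mouse cortex was sequenced in 6 libraries, 3 per group, grouped by the titles in the labels. The deposited values are raw counts per RefSeq transcript, made with CASAVA 1.8.2 and featureCounts on mm10 per the submitters' processing notes; no source used here gives the aligner, the strand setting or the treatment of shared reads. Of 34755 entries, 34424 (99.05%) were matched to a symbol through RefSeq GRCm38.p6, and entries of 1 symbol were summed; the largest unmatched entry held 35% to 55.3% of counts and stayed in the library sizes. A pseudogene whose symbol fits the rule was left out, and Ndufb1, Ndufb4b and Ndufb4c were not analysed here. Members and lists were chosen with earlier results of these data known. The split of complexes I and V into core, accessory and head subunits was made after their values had been seen and is descriptive.

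The test on the counts was that of edgeR 4.0.16 under R 4.3.3 (filterByExpr with a minimum count of 10 and a minimum total of 15, TMM, quasi-likelihood F test, two-sided, Benjamini-Hochberg over 11969 genes, threshold 0.05). The SE is the log2 fold change divided by the square root of F. Deviations are log2 CPM (prior count 2) minus the mean of the 6 libraries. Transcript lengths are the median over a gene's matched transcripts, whether or not these held counts. No library pair differed by less than sampling noise. Named members were those past the threshold, the 3 smallest p-values per complex, catalytic core genes, isoforms, genes at 0 and the highest level per length in each complex; from related lists, the 2 smallest p-values and fixed genes. Ndufc2 was added because its groups did not overlap. Alternatives were other scalings, filters, DESeq2 1.42.0, limma-voom (limma 3.58.1), robust dispersion, a replicate block, entries not summed, structural RNA removed and libraries left out. The fits were tested on simulated data. The values of 1 tested member are not reported here; it stays in the counts and medians. The floor of 3 counts covers counting error only.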

Additional observations from a re-analysis of the deposited data

Results flagged for a closer look

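Ndufs5-ps, a transcribed pseudogene of the complex I subunit Ndufs5 (chr16:42955580-42956079), matched the naming rule but is not protein-coding and was not among the members. It held 2676 counts over the 6 libraries (493, 466 and 415 in the control libraries, then 331, 367 and 604 in the SCFA libraries), far above 3 counts, while Ndufs5 itself held 3. Its mean level was 45.1 ± 7.54 CPM (SD, n = 3) in the control group and 34.9 ± 9.87 CPM (SD, n = 3) in the treated group (log2 fold change -0.37, SE 0.231, edgeR adjusted p = 0.892). No source used here says how reads that fit both copies were assigned, so neither value is read as the level of its own gene. Ndufs5-ps was among the 11969 genes tested, and was left out of the counts and medians of the members.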

How the results depend on the processing

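The count of members called stayed 0 under all 19 alternatives and at an adjusted p under 0.1; without a filter, 81 members were tested, 11 had an unadjusted p under 0.05 and the smallest edgeR adjusted p was 0.0532. The labels do not say that replicate numbers mark shared animals, and the deviations of libraries with the same number had correlations of -0.00206, 0.0101 and -0.00525. With the replicate block, 0 members were called, 6 had an unadjusted p under 0.05 and the median of all members was -0.16. Leaving out 1 library at a time gave medians from -0.25 to 0.02 for all members, -0.33 to -0.04 for complex I, 0.07 to 0.25 for complex II, -0.29 to -0.11 for complex III, -0.36 to 0.01 for complex IV and -0.05 to 0.12 for complex V; without SCFA 2 the medians of all members and of complex II were 0.02 and 0.25. Without both control 2 and SCFA 2, complexes I and III had medians of -0.02 and 0.01. Total counts raised the median of all genes from 0.01 to 0.18 and gave -0.02, 0.29 and 0.17 for complexes I, II and V. Of 871 values of the 46 tested named genes under alternatives, 840 kept their sign. Under total counts, Atp5mpl, Cox6b1, Cox8a, Gabpa, Sdha and Sdhb turned to 0.01, 0.02, 0.04, 0.13, 0.15 and 0.07, where the median of all genes was 0.18. With the length trend removed (chosen after seeing the data) Atp5mpl turned to 0.03. Without control 2 and SCFA 2, Cox6b1, Sdhb and Uqcrq turned to 0.10, 0.09 and 0.05 (Uqcrq was -0.37 without SCFA 1). The cause of these changes of sign was not tested. Leaving out single libraries changed the sign 21 times, in 7 genes on leaving out SCFA 2. Their ranges were -0.29 to 0.09 for Atp5mpl, -0.30 to 0.13 for Cox6b1, -0.28 to 0.32 for Cox7a1 (0.47 without both control 2 and SCFA 2), -0.45 to 0.04 for Cox7a2, -0.26 to 0.04 for Cox8a, -0.08 to 0.13 for Cyc1 and -0.27 to 0.12 for Gabpa. They were -0.52 to 0.12 for Ndufa4, -0.12 to 0.13 for Ndufv1 (0.16 without both), -0.11 to 0.03 for Sdha, -0.26 to 0.10 for Sdhb, -0.07 to 0.32 for Tfam, -0.01 to 0.08 for Uqcrc1 and -0.32 to 0.00 for Uqcrfs1. With 3 libraries a group, the SE of a log2 fold change was 0.219 in the median member (0.125 to 1.17), which limits the size of difference that could be detected.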
